A study of Mus musculus with 8 samples.

Results

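Cytosolic ribosomal protein genes were described in mature oligodendrocytes of mice with and without microglia. The members were all genes of the deposited single-cell matrix whose symbol is Rpl or Rps followed by a digit, together with Rplp0, Rplp1, Rplp2 and Rpsa, leaving out 10 Rps6k kinase symbols and 3 symbols that contain -ps. This gave 85 members of 18833 genes. They comprise 46 proteins of the large subunit, 31 of the small subunit, 7 paralogs (Rpl3l, Rpl7l1, Rpl22l1, Rpl36al, Rpl39l, Rps27l and Rps27rt) and Rps19bp1, which codes for a binding partner of RPS19 and no ribosomal protein.

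Each cytosolic ribosome carries a copy of nearly every one of these proteins next to its ribosomal RNA, and cells keep their amounts in balance. Many of the mRNAs start with a C followed by a run of C and T bases, the terminal oligopyrimidine (TOP) motif, through which mTORC1 and LARP1 set their translation. Oligodendrocytes, which wrap axons in myelin, make large amounts of membrane and protein while they build it.

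Droplet-based single-cell RNA sequencing was done on the hippocampus and on the tissue labelled cortex, the rest of the left hemisphere, of 4 female mice on a mixed CBA:C57Bl6J background. Mouse 1 and mouse 4 were wild type (WT, Fire+/+), whereas mouse 3 and mouse 6 carried a germline deletion of the Fire super-enhancer in an intron of Csf1r on both alleles (labelled KO, FireΔ/Δ), which removes microglia but leaves other brain macrophages. The age on the label was 1 month and 18 days for mice 1 and 3, called the older pair here, and 1 month and 16 days for mice 4 and 6, the younger pair. All tissue was dissociated with actinomycin D, which blocks transcription. A library is 1 tissue of 1 mouse, so 8 libraries hold 2 mice per genotype. Both genotypes of a tissue and pair shared a batch, so pair and batch cannot be told apart, nor can tissue and batch within a pair.

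Libraries held 904 to 2784 cells and 12015360 to 27847948 unique molecular identifiers (UMIs, each standing for 1 captured mRNA molecule), and 21 cell barcodes occurred in more than 1 library. The 4 oligodendrocyte markers took 5.52% to 6.60% of UMIs in the libraries. The 11 microglia markers together took 0.0067% to 0.0157% in WT and 0.0017% to 0.0022% in KO libraries. A level is the mean over cells of the deposited log2(normalized UMIs + 1), and a difference is between such means, on a scale that understates changes of low genes. The mouse is the replicate, except in the main fit between tissues, which counts each library and leaves the pairing by mouse out. Each p-value measures the spread between so few mice or libraries. With the mouse as a block, it measures how the tissue difference varies between mice.

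The start sites of several members are shown because the TOP motif is the feature that these genes are known to share. RefSeq promoters (GRCm38.p6) were found for 65 of the 85 members. A C at the annotated start followed by at least 4 bases that are each C or T, read on the transcribed strand at that position alone, occurred in 14 of these members (21.5%), against 813 of 27025 symbols with a promoter (3.01%). Capitals below mark the run from the annotated start, in windows of 10 bases before the start and 20 bases from it. Rps27 and its intronless copy Rps27rt hold nearly the same bases after the start, whereas Rpl27 and Rps28 have no such run at the annotated position, which says nothing about the start used in these cells.
Rps27 (chr3:90213629-90213658, minus strand): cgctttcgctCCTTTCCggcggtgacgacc
Rps27rt (chr9:114982720-114982749, minus strand): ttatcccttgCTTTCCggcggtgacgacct
Rps21 (chr2:180257369-180257398, plus strand): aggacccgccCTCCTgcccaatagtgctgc
Rpl38 (chr11:114668570-114668599, plus strand): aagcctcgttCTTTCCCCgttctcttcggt
Rpl35 (chr2:39005112-39005141, minus strand): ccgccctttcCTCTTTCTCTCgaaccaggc
Rps10 (chr17:27635225-27635254, minus strand): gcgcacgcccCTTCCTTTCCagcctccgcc
Rpl27 (chr11:101442235-101442264, plus strand): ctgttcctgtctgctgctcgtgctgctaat
Rps28 (chr17:33824543-33824572, minus strand): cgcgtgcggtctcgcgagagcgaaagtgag

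Ribosomal protein mRNAs were among the most abundant of these cells. Of the 85 members, 37 ranked among the 200 genes of highest level, and 50 had a UMI in at least 99% of the 12581 cells. Among those with the highest levels were Rps27a (3.17, mean over 8 libraries, on the log2 scale), whose product is made as a fusion with ubiquitin, Rpl13 (3.05), Rpsa (2.97), which also codes for the laminin receptor, and Rps21 (2.93). The median level was 2.28 over the 46 large subunit and 2.35 over the 31 small subunit members. These values are per transcript molecule captured and are not divided by length.

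The paralogs lay at the other end of this range. Rpl3l, the striated muscle form of Rpl3, and Rpl39l, known from the testis, had 3 UMIs each in all cells and did not enter the tests. Rps27rt (0.17), Rps19bp1 (0.26), Rpl7l1 (0.29), Rpl22l1 (0.79) and Rps27l (0.92) followed, and Rpl36al reached 1.32. The coding sequence of Rps27rt is identical to that of Rps27 over 252 bases (100%), so UMIs of this pair may have been split by the authors' counting and their values are uncertain. Rpl36a and Rpl36al share 87.7% of bases, Rps27 and Rps27l 76.2%, and Rpl7 and Rpl7l1 54.0%.

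The members together took about the same share of UMIs in both genotypes and a larger share in the older pair. In hippocampus the share was 4.70% in WT mouse 1, 4.05% in WT mouse 4, 4.48% in KO mouse 3 and 3.94% in KO mouse 6. In cortex it was 4.62% in WT mouse 1, 4.14% in WT mouse 4, 4.68% in KO mouse 3 and 3.96% in KO mouse 6. All 4 libraries of the older pair were above all 4 of the younger pair, and the genotypes overlapped. The exact 95% binomial interval of a library's share reached at most 0.011 percentage points to either side, for counting error only.

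Averaged over both tissues, WT mice had 4.38% ± 0.40 (SD, n = 2 mice) and KO mice 4.26% ± 0.45 (SD, n = 2). The older pair had 4.62% ± 0.05 (SD, n = 2) and the younger pair 4.02% ± 0.11 (SD, n = 2). Between the genotypes the difference was thus smaller than the SD within a genotype, and between the pairs it was larger than the SD within a pair. Each genotype holds 1 mouse of each pair, so its SD includes the difference between the pairs. Within the older pair KO mouse 3 had 4.58% against 4.66% in WT mouse 1. Within the younger pair KO mouse 6 had 3.95% against 4.10% in WT mouse 4. Within batches, KO minus WT was −0.21 percentage points in batch 3, 0.06 in batch 4, −0.11 in batch 5 and −0.19 in batch 6. An exact permutation of 2 against 2 mice cannot give a two-sided p below 0.333, and none was computed for this sum.

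**Figure D1:**
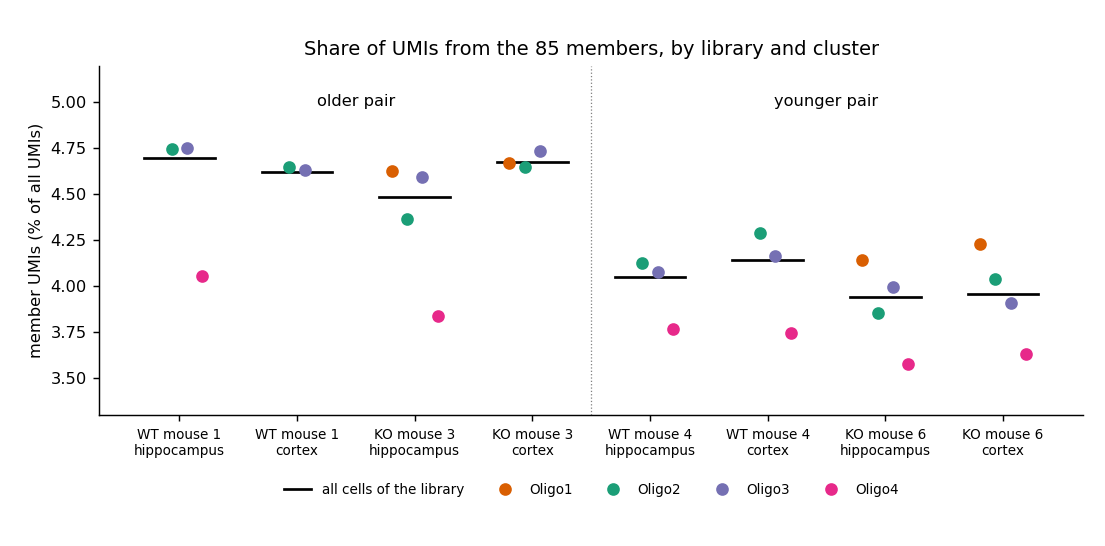
UMIs of the 85 members as a percent of all UMIs (vertical axis) in each library (horizontal axis), with a line for all cells of the library and points for the clusters Oligo1 to Oligo4 that hold at least 50 of its cells. The 4 libraries of the older pair lie at 4.48% to 4.70%, above the 3.94% to 4.14% of the younger pair, and Oligo4 is the lowest cluster wherever it is shown.

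The first comparison asked whether ribosomal protein genes differ in oligodendrocytes without microglia. In limma, with a threshold of 0.05 on the adjusted p, 0 of 83 tested members passed, and edgeR's quasi-likelihood test called 0 as well. Over all 9257 tested genes 5 passed (0.054%). At an unadjusted p under 0.05 there were 0 members, against 2.02% of all tested genes. The median difference of the members, KO minus WT, was −0.04 on the log2 scale against 0.00 over all genes, and 15 members were positive and 68 negative, against 53.9% positive over all tested genes. In 7 members both KO mice lay below both WT mice (8% of all tested genes), and in 0 above (11.9%). The median standard error of a member was 0.15 in this fit and 0.05 with the pair of mice as a block, where 28 genes (0.302%) and 0 members passed and 1 member had an unadjusted p under 0.05 (Rpl23a, −0.11 ± 0.04, adjusted p = 0.485, limma), against 9.81% of all tested genes. Leaving out a mouse gave medians from −0.12 without mouse 3 to 0.06 without mouse 6, but each such fit also holds unequal numbers from the pairs.

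In the P stalk, the proteins that recruit elongation factors, Rplp0 differed by 0.03 ± 0.14 (SE), Rplp1 by −0.00 ± 0.17 and Rplp2 by −0.07 ± 0.14 between KO and WT. All 8 proteins listed for the exit tunnel, through which the growing chain leaves, were negative (−0.11 to −0.02), without a call. Over all 83 tested members 68 were negative, and of the 46 large subunit members only 6 were positive. Rps14 (chr18:60747098-60778546, GRCm38), a protein near the mRNA exit, lies 0.322 Mb from Csf1r and is thus the member closest to the deleted enhancer. Its level in WT was 2.78 and 2.70 in the hippocampus of mice 1 and 4 and 2.71 in both cortices. In KO mice 3 and 6 it was 2.72 and 2.68 in hippocampus and 2.73 and 2.63 in cortex. These ranges overlapped, and the difference was −0.04 ± 0.16 (SE; adjusted p = 0.9998, limma).

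The most negative members between genotypes were Rpl21 (−0.18), Rps27 (−0.14), Rps21 (−0.14), Rps29 (−0.13) and Rps3 (−0.12), and the most positive were Rps2 (0.06), Rpl36al (0.04), Rps27l (0.03), Rps9 (0.03) and Rpl3 (0.03). None of these passed. The large negative values came from KO mouse 6 more than from KO mouse 3. For Rpl21, a large subunit protein, the level in mouse 3 was 2.68 in hippocampus and 2.77 in cortex, but 2.17 and 2.25 in mouse 6. WT mouse 1 had 2.79 and 2.74, and WT mouse 4 had 2.51 and 2.56. Mouse 6 was thus below the other mice in both tissues, whereas mouse 3 lay beside mouse 1.

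Rps3, which sits where mRNA enters the ribosome and also acts in DNA repair, went in opposite directions in the 2 pairs. Its level was 2.42 and 2.43 in hippocampus and cortex of WT mouse 1 and 2.53 and 2.65 in KO mouse 3. In WT mouse 4 it was 2.51 in both tissues, against 2.07 and 2.15 in KO mouse 6. KO minus WT was 0.11 and 0.22 in hippocampus and cortex of the older pair, and −0.44 and −0.36 in the younger pair. With 1 mouse per genotype in a pair, a trait of the animal cannot be told apart from its genotype.

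Rps2, the neighbour of Rps3 at the mRNA entry, showed another order of mice. It was 2.46 and 2.48 in WT mouse 1 and 2.43 and 2.46 in KO mouse 3, but 2.16 in both tissues of WT mouse 4 and 2.32 and 2.31 in KO mouse 6. The tissues of a mouse differed by 0.014 on average, while the 4 mice spanned 0.309. Over all tested members the median span between mice was 0.203 and the median gap between tissues 0.050, a median ratio of 3.68, against 2.28 over all tested genes.

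**Figure D2:**
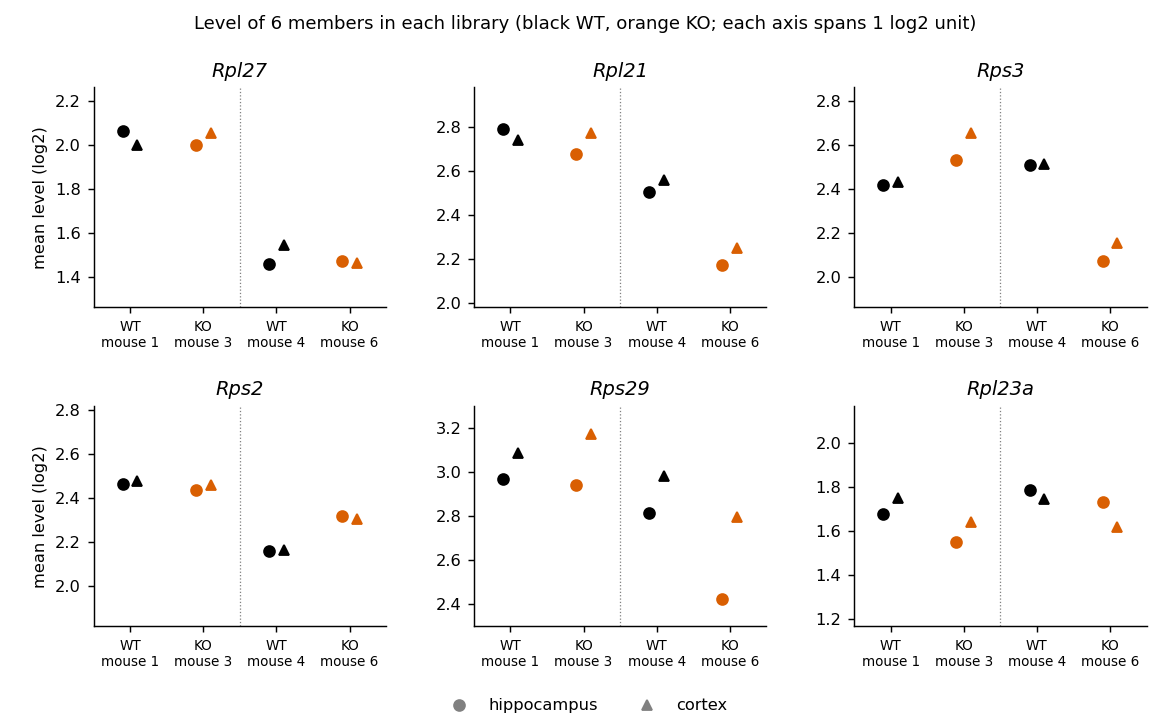
Level (mean log2 value over cells, vertical axes, each spanning 1 log2 unit) of 6 members in each mouse (horizontal axes), with circles for hippocampus and triangles for cortex, WT in black and KO in orange. Rpl27 separates the pairs, at 1.998 to 2.06 and at 1.46 to 1.54, whereas Rpl21 and Rps3 are lowest in KO mouse 6.

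Within the 4 batches, 11 of 83 tested members were lower in KO than in WT each time, against 9.9% of all tested genes, and 1 member was higher each time (Rpl36al, 0.01 to 0.07), against 13.4%. Those below WT in all batches included Rps20, Rpl5, Rps19, Rpl13a, Rplp2, Rpl14, Rps15, Rpl23a and Rps23. For Rpl5, which carries the 5S RNA into the ribosome, the 4 differences ran from −0.14 to −0.04. The median member was lower in batches 3 (−0.06), 5 (−0.06) and 6 (−0.05) and higher in batch 4 (0.03), the cortex of the older pair. Cluster Oligo1 holds KO cells but for 6 WT cells. Without it 0 members passed in limma or edgeR, where limma called 2 of 9232 genes (0.0217%), and 0 members had an unadjusted p under 0.05 (1.05% of genes). The median member was then −0.04 with 72 of 83 negative (52.8% of genes were positive), and in 7 members both KO mice lay below both WT mice (6.89% of genes), in 0 above (9.84%).

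The pairs of mice, which differ in age and batch and hold both genotypes, were compared next. Older minus younger, 25 of 83 tested members were higher and 0 lower in the limma fit with genotype as a term, where 9.85% of all 9257 tested genes were called higher and 14.7% lower. The median member was higher by 0.15 (median of all tested genes 0.00), 82 of 83 members were positive, and in 74 members both older mice lay above both younger mice, against 28.5% of all tested genes, and in 0 members below them (39.5%). At an unadjusted p under 0.05 there were 50 members (43.7% of all tested genes), and 43.7% of all tested genes were positive. The large subunit median was 0.18 and the small subunit median 0.15. edgeR called 29 members, all higher, where 993 of 9257 tested genes were called higher and 801 lower.

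The number of calls depended on the fit, which leaves a single residual degree of freedom. No member passed when no gene was filtered out or when each cell was thinned to 5000 UMIs, although the median stayed at 0.15 and 0.16, and 5 passed when the values were normalized without members and mitochondrial genes. Without the libraries of batch 6, which the study's methods describe as of lower quality, 10 passed, and 5 passed without the hippocampus library of mouse 6, with medians of 0.17 and 0.14. Centring on the median gene turned the split over all genes from 912 higher and 1360 lower to 1389 and 833, while it left 27 members higher and 0 lower.

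Rpl27 (chr11:101442298-101445529, GRCm38), a large subunit protein, had the largest difference. Its level was 2.06 and 1.998 in hippocampus and cortex of WT mouse 1 and 2.002 and 2.05 in KO mouse 3, but 1.46 and 1.54 in WT mouse 4 and 1.47 and 1.46 in KO mouse 6. The pairs did not overlap in either tissue, and the difference was 0.54 ± 0.04 (SE; adjusted p = 0.0123, limma). Rpl21 followed (0.37 ± 0.08; adjusted p = 0.0333), then Rpl6 (0.36 ± 0.06; adjusted p = 0.0227), Rps26 (0.33 ± 0.05; adjusted p = 0.0202) and Rpl38 (0.32 ± 0.07; adjusted p = 0.0339). RPS26 sits near the mRNA exit, and RPL38 is known for a role in translating Hox mRNAs.

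Further members higher in the older pair were Rpl37 (0.32), Rpl29 (0.27), Rpl36 (0.26), Rpl10a (0.21) and Rpl22 (0.18), each called by limma. Rpsa was 3.15 in both tissues of mouse 1 and 3.01 and 3.07 in mouse 3, against 2.84 in both tissues of mouse 4 and 2.81 and 2.86 in mouse 6 (difference 0.26 ± 0.07, adjusted p = 0.0476, limma). The exit tunnel had 2 calls among 8 (Rpl22 and Rpl39), the mRNA exit 1 among 5 (Rps26), and the P stalk and the 5S RNA partners Rpl5 and Rpl11 had 0 calls, with differences from 0.01 to 0.19. Some members differed little. Rpl4 (0.01), Rps15 (0.01), Rpl5 (0.01) and Rps18 (0.02) were near 0, and Rpl23a, a docking site for the signal recognition particle, had the opposite sign (−0.07 ± 0.04, adjusted p = 0.252, limma).

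**Figure D3:**
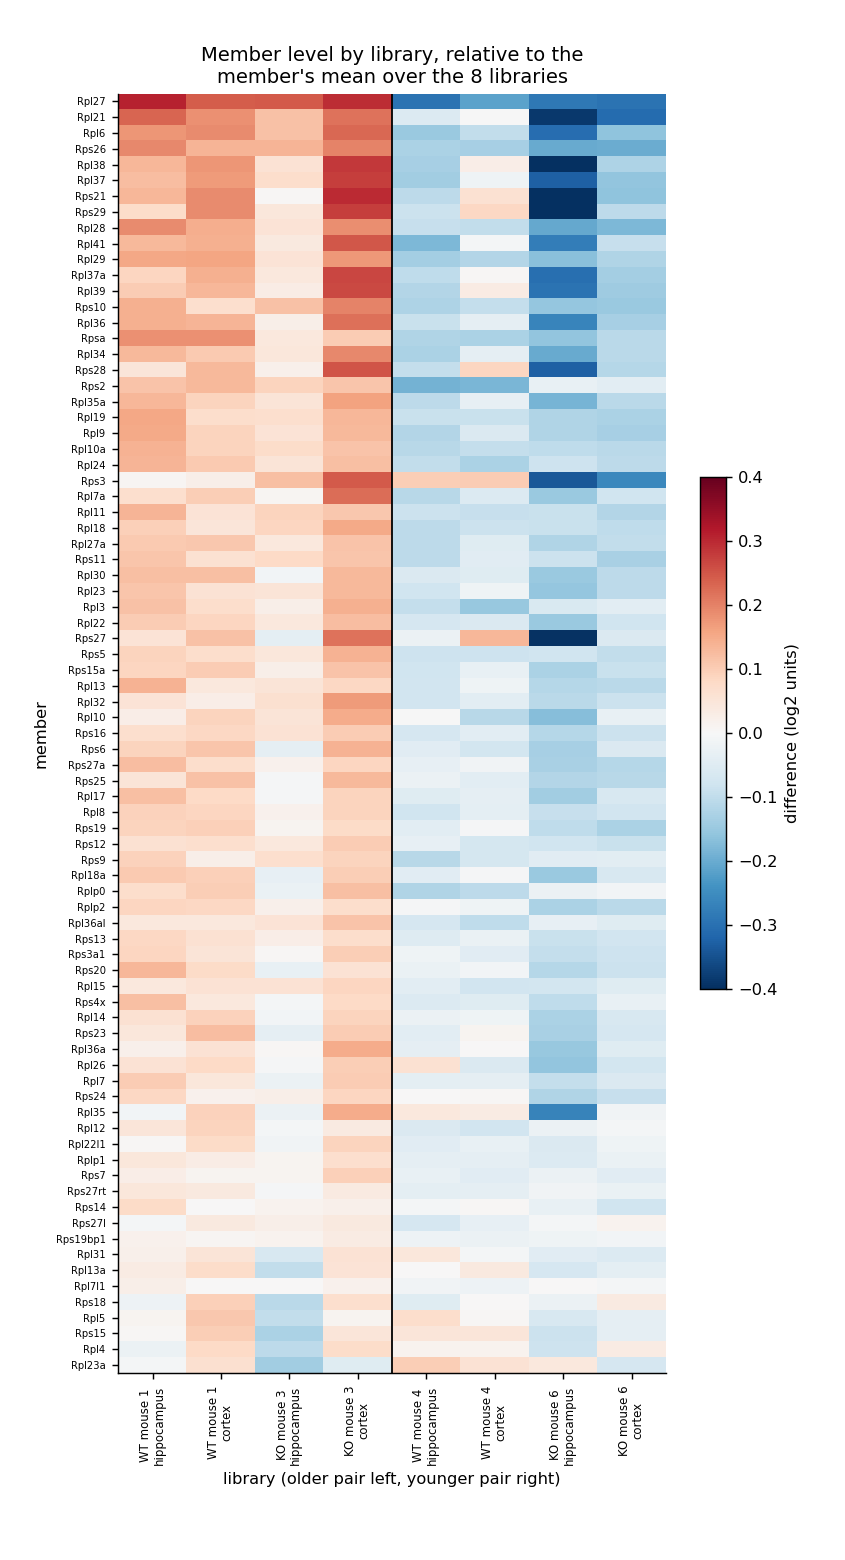
Level of each of 81 of the 83 tested members (rows, ordered by the difference between pairs) in each library (columns), as the difference from the member's mean over the 8 libraries in log2 units, with red higher and blue lower. The 4 columns of the older pair are mostly red and those of the younger pair mostly blue from Rpl27 down, with the hippocampus library of mouse 6 lowest for Rps21, Rps29, Rpl38 and Rps27.

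Other genes of the translation machinery were set beside the members. Fau, which codes for RPS30 and is left out by the symbol rule, differed between the pairs by 0.24 (adjusted p = 0.0528, limma). For comparison, 9.85% of all tested genes were called higher and 14.7% lower. Of 18 translation factors and other TOP mRNAs, 7 were higher and 0 lower (median 0.09), among them Btf3 (0.26), Eif3f (0.21) and Eif3h (0.18), whereas Tpt1 (−0.08) and Pabpc1 (−0.08) were negative without a call. Of 30 ribosome biogenesis genes 5 were higher and 0 lower (median 0.01), led by Rrp1 (0.23). Mitochondrial ribosomal proteins, which belong to a separate ribosome, had 27 of 78 higher and 0 lower with a median of 0.04. The lists were not tested against each other. Of 13 tested mTORC1 and translation regulators 3 were lower (Rps6kb1, Tsc1 and Rptor) and 0 higher (median −0.03).

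Other properties of the libraries were set beside the pairs. The oligodendrocyte markers took 5.52% to 5.94% of UMIs in the older and 6.32% to 6.60% in the younger pair, with Mag higher in the older pair (0.28, adjusted p = 0.0436, limma). Erythrocyte markers took 0.0198% to 0.0994% in the older and 0.0032% to 0.0233% in the younger pair, ranges that overlapped. The highest values were in the hippocampus of the older pair (0.0994% in WT mouse 1 and 0.0878% in KO mouse 3). The part of these differences in the ribosomal protein result was not tested.

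**Figure D4:**
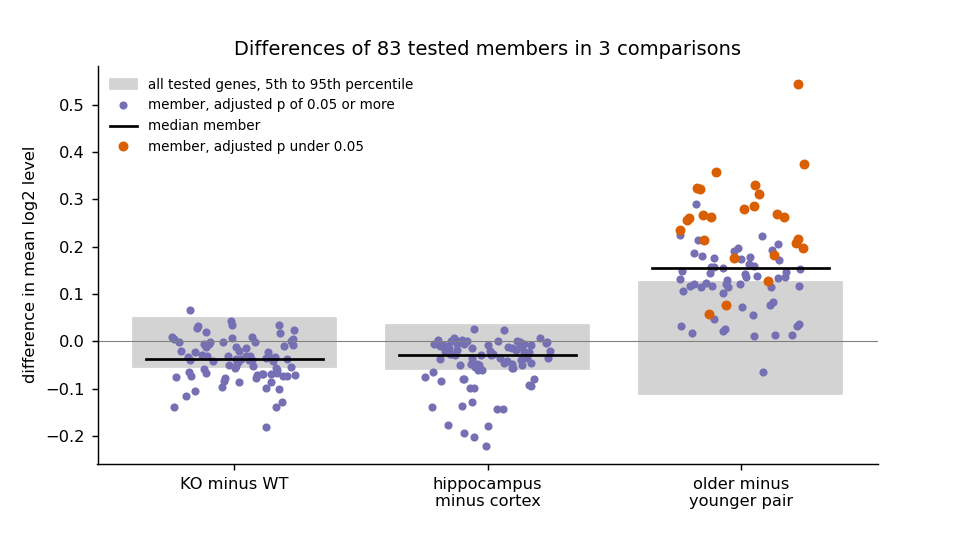
Difference in mean log2 level (vertical axis) of 83 tested members in the comparisons of genotype, tissue and mouse pair, with a grey band from the 5th to the 95th percentile of all tested genes, a line at the median member, and members with an adjusted p under 0.05 in orange. The median member is −0.04, −0.03 and 0.15, and all 25 calls are in the comparison of pairs.

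No member was called between tissues, and the size of the differences varied with the mouse. Hippocampus minus cortex, 0 of 83 members and 0 of 9257 genes passed in limma (0%), and edgeR also called 0. At an unadjusted p under 0.05 there were 0 members, against 451 genes (4.87%). The numbers in the labels mark the animal, so the tissues are paired, and with the mouse as a block 58 genes (0.627%) and still 0 members passed. At an unadjusted p under 0.05 this fit had 15 of 83 members, a share near the 18.8% of all tested genes. The median member was −0.03 (all genes −0.01). Per mouse it was 0.00 in WT mouse 1, −0.02 in WT mouse 4, −0.09 in KO mouse 3 and −0.03 in KO mouse 6. In KO mouse 3 all 83 tested members were lower in hippocampus, while in WT mouse 1 41 were lower and 42 higher.

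In 27 of 83 members hippocampus was lower in all 4 mice, against 18.6% of all tested genes, and 0 were higher in all 4, against 6.78%. Of 83 members 8 were positive, against 35.6% of all tested genes. Other scales gave 31 positive members with log2 of the mean plus 1 and 35 with thinned cells. Without the hippocampus library of mouse 6 the median was 0.00 with 45 members positive, but this fit holds unequal numbers from the pairs. Without both libraries of mouse 6 the median was −0.03 with 8 members positive. The median cell had 9377 to 13243 UMIs in the hippocampus libraries and 11048 to 13725.5 in the cortex libraries, and the part of depth was not tested beyond the thinned fit. Mitochondrial genes took 4.65% to 5.05% of UMIs in the hippocampus and 5.42% to 6.28% in the cortex libraries, without overlap, and within cortex 5.42% in the older and 6.24% to 6.28% in the younger pair. Their part in the differences between tissues and pairs was not tested.

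The most negative members were Rps29, Rps27, Rps21, Rpl38 and Rps28, all with short coding sequences. Rps29, a zinc-binding protein of the small subunit, differed between hippocampus and cortex by −0.12 in mouse 1, −0.17 in mouse 4, −0.23 in mouse 3 and −0.37 in mouse 6. For Rps28, near the mRNA exit, the values were −0.08, −0.18, −0.23 and −0.21 in the same order. Both were lower in hippocampus in all 4 mice, without a call (with the mouse as a block, Rps28 −0.18 ± 0.04, adjusted p = 0.0520, and Rps29 −0.22 ± 0.05, adjusted p = 0.0764, limma). Rps14 (0.03) and Rpl11 (0.02) were the most positive.

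Coding length was therefore set beside the differences, a split chosen after their values were seen. The 21 members with the shortest coding sequences (up to 361.5 bases) had a median hippocampus minus cortex difference of −0.08, and all 21 were negative, whereas the 62 longer members had −0.02. Among genes that are no members, 366 as short had −0.01 and 8456 longer ones 0.00. Without the hippocampus library of mouse 6, which leaves unequal numbers from the pairs, the medians of shorter and longer members were −0.02 and 0.01. Without both libraries of mouse 6 they were −0.07 and −0.02. Between the pairs of mice the shorter members were also further apart (0.22) than the longer ones (0.14), and so were the other short genes (0.05 against −0.01).

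**Figure D5:**
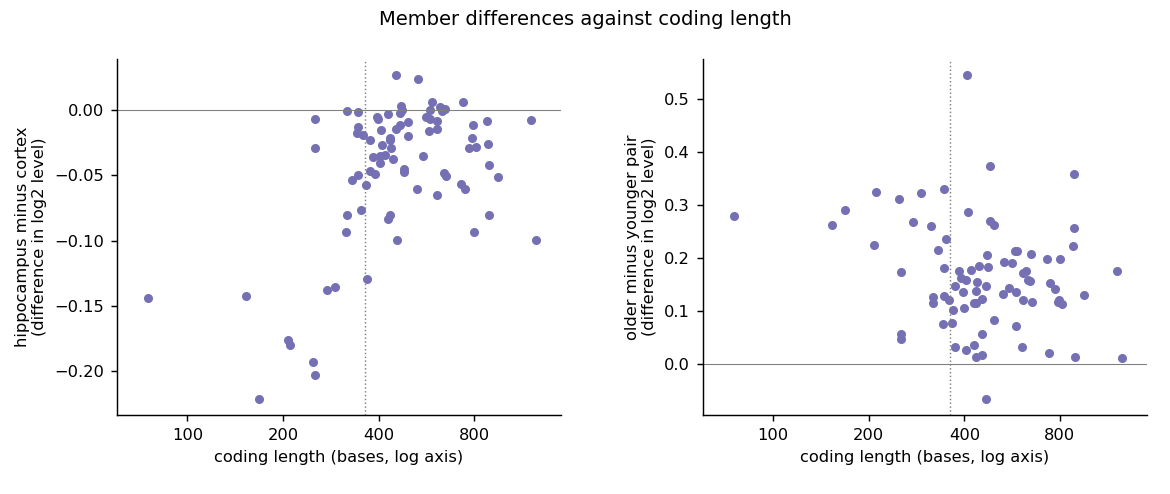
Difference of each tested member in log2 level against its coding length in bases (horizontal log axes), for hippocampus minus cortex at left and older minus younger pair at right, with a dotted line at 361.5 bases, the limit of the shorter members. The 21 shorter members have a median of −0.08 at left and 0.22 at right, against −0.02 and 0.14 for the longer ones.

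The 14 members with a TOP run at the annotated start were set beside the others without a test. A run beside the annotated position was not counted, so this split does not separate TOP mRNAs from other mRNAs. Their median was 0.16 between the pairs and −0.05 between tissues, against 0.15 and −0.03 for 49 tested members with a promoter and no such run. Between genotypes the medians were −0.05 and −0.03, and for the interaction of genotype and tissue −0.07 and −0.06. All 14 were negative between tissues, as were 75 of the 83 tested members. Of these 14, 6 were called between the pairs, against 15 of the 49. Of all tested genes, 9.85% were called higher between the pairs and 14.7% lower.

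Whether the genotype difference depended on the tissue was tested on each mouse's hippocampus minus cortex value. In limma 0 of 83 members and 0 of 9257 genes passed (0%), while 16 members had an unadjusted p under 0.05, against 6.06% of all tested genes. The median member was −0.06 (all genes −0.01), and 79 of 83 were negative, 4 positive (33.7% of all tested genes). edgeR was not run on this comparison. The lowest were Rps27 (−0.19), Rpl35 (−0.17), Rps21 (−0.16), Rps29 (−0.16) and Rpl38 (−0.16), and the highest Rpl23a and Rps27l (0.02 each). In 43 members both KO mice lay below both WT mice, against 26.8% of all tested genes, and in 1 member above, against 10.3%. Leaving out a mouse gave medians from −0.10 to −0.03.

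The study divided the oligodendrocytes into clusters Oligo1 to Oligo4, made from the same values, so differences between clusters are a description without a test. Oligo4 had the lowest share of member UMIs in all 6 libraries with at least 50 of its cells, at 3.58% to 4.06%, against 3.91% to 4.75% in Oligo3. The median member, Oligo4 minus Oligo3, was −0.19 to −0.06 in these libraries, and 59 of 83 members were lower in all 6, against 10.3% of all genes, and 0 higher, against 14.6%. Rps6, the small subunit protein phosphorylated downstream of mTORC1, had differences of −0.37 to −0.18, and Rps10 of −0.41 to −0.12 (both named after their values were seen). Rpsa (mean −0.01), Rps27l (0.01) and Rpl7l1 (0.01) differed little. In each of these libraries Oligo4 cells held more UMIs than Oligo3 cells, with medians of 10956.5 to 15122.5 against 8883 to 12827, and the part of depth was not tested.

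In Oligo1, the cluster found almost only in KO mice, the summed members lay on both sides of Oligo3 and above Oligo2. The share was 4.63%, 4.15%, 4.67% and 4.23% in hippocampus of mice 3 and 6 and cortex of mice 3 and 6, where Oligo3 had 4.59%, 3.99%, 4.73% and 3.91%. Oligo1 minus Oligo2 was 0.26, 0.29, 0.02 and 0.19 percentage points in the same order. The median member, Oligo1 minus Oligo2 to Oligo4, was −0.01 and 0.02 in hippocampus and −0.04 and 0.06 in cortex of mice 3 and 6, with 42 members positive and 41 negative on average. Single members differed in both directions. Of 83 members 15 were higher in all 4 KO libraries, against 19.6% of all genes, and 10 were lower, against 15.8%.

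Rps2 was higher in Oligo1 by 0.13 and 0.15 in hippocampus and 0.02 and 0.34 in cortex of mice 3 and 6, followed on average by Rpl10a (0.12), Rpl12 (0.11), Rplp1 (0.11) and Rpl15 (0.10). Rpl10a varied least, from 0.09 to 0.14. Rpl7 (−0.13) and Rps27a (−0.11) were lowest, followed by Rpl26 (−0.09), Rps15 (−0.09) and Rps21 (−0.08). Rpl7, Rps27a and Rpl26 were negative in all 4 libraries, whereas Rps15 and Rps21 were positive in the cortex of mouse 6. Oligo2 and Oligo3 differed by a median of −0.02, with 14 of 83 members lower in Oligo2 in all 8 libraries (9.62% of genes) and 4 higher (16.1%). The extremes were Rps7, from 0.03 to 0.17, and Rps3a1, from −0.19 to −0.06.

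Across the cells of a library the members varied together only in part. Among the 80 members detected in 50% of cells or more, the median correlation of a member with the sum of the others, after division by the size factor, was 0.39 to 0.50 in the 8 libraries of 904 to 2784 cells. The highest of a library was 0.53 to 0.67, and the lowest that of Rps27l, Rpl22l1 or Rpl31, at 0.08 to 0.14. These correlations share each cell's size factor and depth, and a cell's share of member UMIs correlated negatively with its total UMIs in each library (r from −0.39 to −0.11).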

How the data were processed

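The authors aligned reads with Cell Ranger 5.0.0 to mm10, filtered cells and kept mature oligodendrocytes. The deposited matrix holds scran-normalized log2 values (UMI counts divided by the size factor, pseudocount 1) of 12581 cells over 18833 genes, which are not batch corrected. A deposited cell table gives total UMI counts, the size factor as a ratio, the batch and the clusters. All 42420937 values above 0 gave whole UMIs within 0.001. Doublets were gated out by the authors when sorting, and no caller was run here. Genes detected in 5% of cells or more, as a mean over the samples compared, were tested with limma 3.58.1 in R 4.3.3 (trended empirical Bayes) on the mean log2 value of each mouse, or of each library for tissue, with genotype as a term for tissue and for mouse pair, and with Benjamini-Hochberg adjustment over all genes and a threshold of 0.05. edgeR 4.0.16 was run on the recovered counts summed per mouse or library. Scripts were tested on simulated data.

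Members and lists were chosen with earlier results of these data known. Named members are Rplp0, Rplp1, Rplp2, Rpsa, Rps14, Rps15 and Rps21, the 5 highest and 5 lowest by level, paralogs and their parents, and for each comparison up to 10 past the threshold and the 5 most positive and most negative. Others are Rps7, Rps3a1, Rps6, Rps10 and those listed within a group, named after their values were seen. Positions come from GENCODE M21 (GRCm38), coding lengths from the same annotation, and promoters from RefSeq. Hippocampus and cortex libraries with the same number come from the same animal, and their deviations from the genotype mean correlated at 0.84 (WT) and 0.85 (KO) across genes. Results for some genes are not reported here.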

Additional observations from a re-analysis of the deposited data

Results flagged for a closer look

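Rps3 differed between KO and WT in opposite directions in the 2 pairs of mice, by more than 0.1 in every batch. This size singled it out among 83 tested members. Other members also changed sign between the pairs, but by less in some batches. Rps2, for example, had −0.03 and −0.02 in the older pair and 0.16 and 0.14 in the younger pair. The share of all tested genes with such a change is not given. For Rps3, KO minus WT was 0.113 and 0.222 on the log2 scale in hippocampus and cortex of the older pair. In the younger pair it was −0.436 and −0.359. The difference between the pairs was not tested, as each pair holds 1 mouse per genotype.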

How the results depend on the processing

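No member passed in any alternative for genotype, genotype within Oligo2 to Oligo4, tissue or the interaction, with the mouse as a replicate block for tissue and the age pair as a replicate block for genotype included. Those blocks moved the count over all genes from 0 to 58 (71 with edgeR and the mouse as a block, added after seeing the data) and from 5 to 28. For genotype the count over all genes ran from 0 (no filter) to 77 (without mouse 4), and in Oligo2 to Oligo4 from 0 to 51. Older minus younger, 25 members became 0 with no filter or with 5000 UMIs per cell, 5 without members and mitochondrial genes in the normalization, 10 without batch 6 and 5 without the hippocampus library of mouse 6 (added after seeing the data), and all genes went from 2272 to 0, 1, 845, 898 and 734. The median moved to 0.22 in edgeR and from 0.13 to 0.18 with a mouse left out, where no test was possible because no residual degree of freedom was left. Without batch 6 the tissue median was −0.11, but the cortex libraries left were all of the older pair. The tissues in that fit thus hold unequal numbers from the pairs. The interaction median without batch 6 was −0.10, as a value without a test. With a mouse left out, medians ran from −0.12 to 0.06 (genotype), −0.13 to 0.06 (Oligo2 to Oligo4), −0.04 to −0.02 (tissue) and −0.096 to −0.028 (interaction), KO minus WT in the share of UMIs from −0.43 to 0.20 percentage points, and older minus younger from 0.52 to 0.67. The cause of these moves was not tested. Each pair holds a single mouse per genotype.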
